A study of Mus musculus with 16 samples.

Results

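The 40 genes described here encode the machinery of autophagy, the process by which a cell encloses part of its contents in a double membrane and delivers it to the lysosome. They were taken from a list of initiation, conjugation, cargo receptor and regulator genes, matched by symbol to the deposited count table. All 40 were matched among 46078 genes in the table, and all 40 were among the 16101 genes that had enough counts to be tested. The rule itself used no measured value, but the members were chosen with earlier results of these data known.

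The RNA came from flank tumours of B16F10-GP, a line of B16 mouse melanoma, grown in Matrigel in female C57BL/6 mice aged 6 to 8 weeks. Each of 4 groups had 4 libraries, 16 in all. Mice labelled Untreated received vehicle. The 5Gy group received 5 Gy of X-rays once, on the right flank, on day 10. The QHII group received the compound QH-II-066, injected into the abdomen at 10 mg/kg daily for 7 days from day 10. The 5Gy_QHII group was irradiated in the morning of day 10 and received the same course of QH-II-066 from that evening. QH-II-066 is known as a ligand of GABA type A receptors. Mice carried tumours on both flanks, and the labels name neither the flank nor the mouse behind a library. The p-values below therefore measure the spread between these libraries, which may be technical in part. For the drug comparison the 8 libraries of QHII and 5Gy_QHII were set against the 8 of Untreated and 5Gy.

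Autophagy starts when the ULK1 kinase complex becomes active, often after the nutrient sensor mTORC1 has released it. A lipid kinase complex built on PIK3C3 then marks the membrane, lipid carriers and the scramblase ATG9A supply it, and conjugation reactions related to ubiquitin transfer attach LC3 proteins to it. Cargo receptors bind LC3 and the material to be degraded, and the closed vesicle fuses with a lysosome. The transcription factors TFEB and TFE3 switch on lysosome and autophagy genes. In melanocytic cells, relatives of these factors and lysosome-like organelles also serve pigment production. Much of autophagy is controlled at the protein level, so RNA levels do not measure its rate.

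Library depth ran from 6994198 counts, in 5Gy_QHII replicate 4, to 40799942, in 5Gy_QHII replicate 1. The lowest count of any member in any library was 59 fragments, of Atg10. Melanocyte markers were high in each library, with Dct at 5390 to 10200 CPM, counts scaled to library size, and Pmel at 3720 to 6170 CPM. The mean log2 CPM of skin epithelium markers was above 0 only in 5Gy replicates 2 and 4 and in 5Gy_QHII replicates 2, 3 and 4. In bulk tumour RNA, fewer cells of a type and less RNA per cell cannot be told apart.

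Per length of transcript, the abundance of the 40 genes spanned a wide range. In FPKM, which divides CPM by exonic length in kilobases, the highest mean over the 16 libraries was that of Lamp1, a membrane glycoprotein of the lysosome, at 379 ± 45.3 (SD, n = 16). Sqstm1, which encodes the cargo receptor p62, followed at 260 ± 36.3 FPKM. Rb1cc1 was lowest at 1.70 ± 0.315 FPKM, next to Epg5 at 1.80 ± 0.390 FPKM, a pair whose ranges overlapped. The initiation genes ran from Rb1cc1 to Atg101 at 35.4 ± 12.2 FPKM. Among the lipid kinase genes, Uvrag had 16.9 ± 4.77 and Atg14 had 2.58 ± 0.493 FPKM. For membrane supply the extremes were Vmp1 at 30.7 ± 4.19 and Atg2a at 2.53 ± 0.394 FPKM, and for conjugation Atg3 at 25.1 ± 4.19 and Atg16l1 at 3.12 ± 0.320 FPKM. Calcoco1, at 8.18 ± 1.43 FPKM, was the lowest cargo receptor, and Tfeb at 6.55 ± 1.57 lay above Tfe3 at 5.21 ± 0.603 FPKM with overlapping ranges.

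In the drug comparison, 0 of the 40 members passed the threshold of an adjusted p under 0.05 in edgeR's quasi-likelihood test, against a background of 0% of the 16101 genes. The smallest adjusted p of a member was 0.141. At an unadjusted p under 0.05 there were 17 members, or 42.5%, beside 26.1% of all genes tested. A stricter filter kept the 12233 genes with at least 10 counts in every library. There 17 members had such a p, beside 32% of genes. Fold changes were above 0 for 17 members and below 0 for 23, with a median of -0.05 on the log2 scale beside -0.01 over all genes. No member separated the 8 drug-treated from the 8 drug-free libraries, and of all 16101 genes 1 lay wholly above and 1 wholly below.

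Other tools on the same counts gave other numbers. DESeq2 called 6 members, all lower with drug, namely Rb1cc1, Pik3r4, Uvrag, Wipi1, Atg2b and Nbr1, where its background was 7.25% of genes. It gave no adjusted p for 6 further members. Its backgrounds, here and below, count genes without an adjusted p as not called. The share among genes with an adjusted p is therefore higher. The voom method of limma, with a weight for each library, called 24 members, 7 higher and 17 lower, where its background was 30.8% of genes. Those 24 held the 6 DESeq2 calls. The weights gave Untreated replicate 4 the least say, at 0.314, and 5Gy_QHII replicate 1 the next least, at 0.322, while QHII replicate 4 had 2.94. Without Untreated replicate 4, edgeR called 12 members, 2 higher and 10 lower, and 17.5% of all genes.

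**Figure D1:**
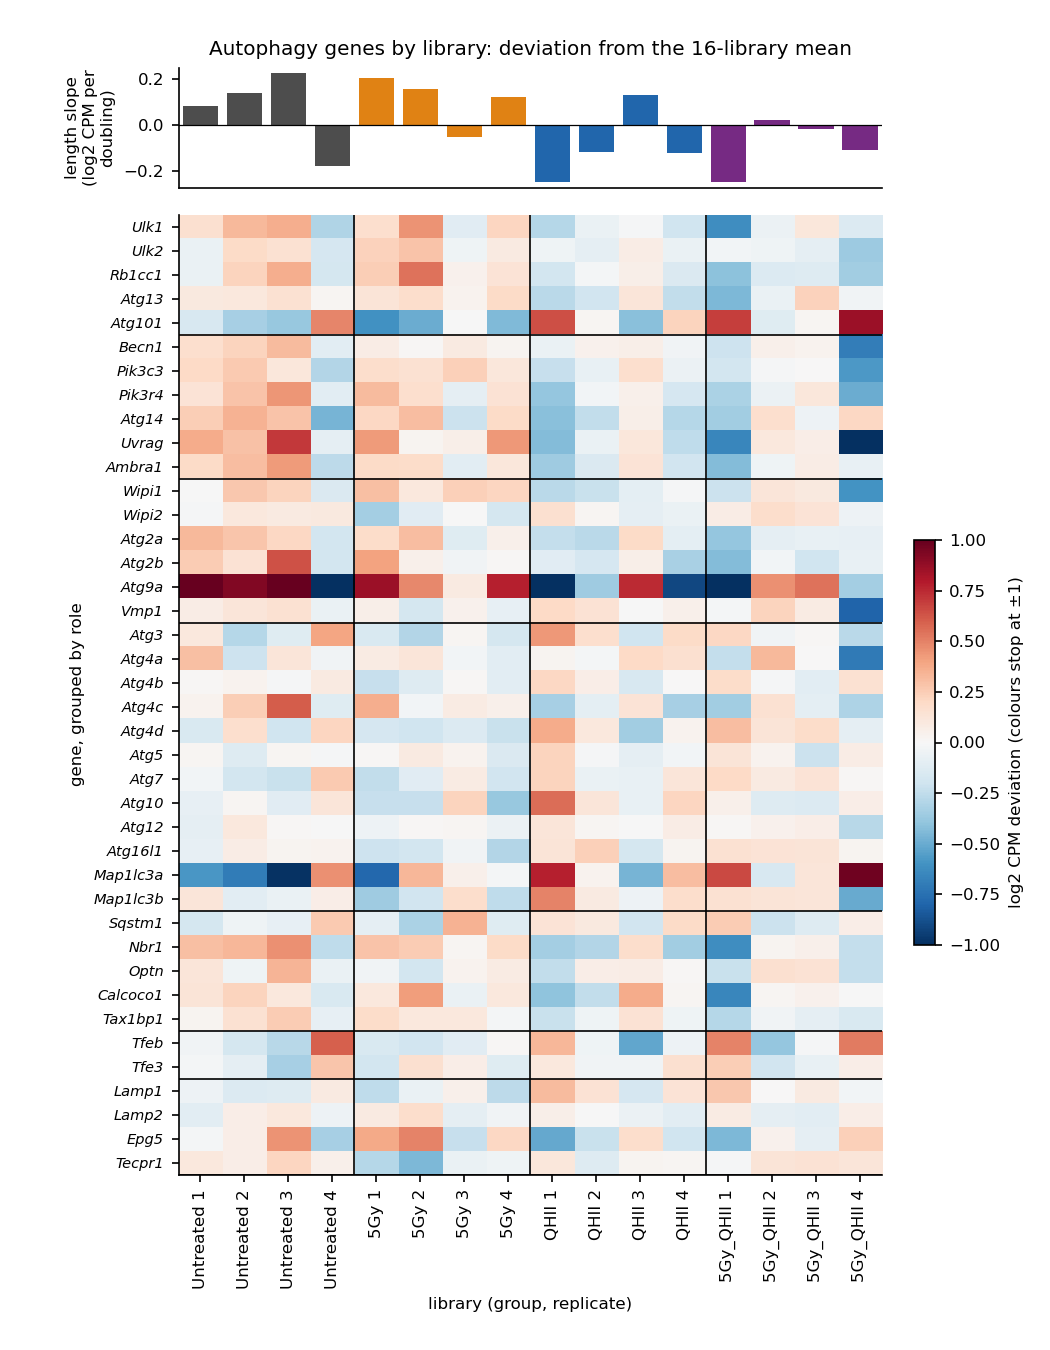
Heat map of the 40 autophagy genes (rows, grouped by role) in the 16 libraries (columns), as the deviation of log2 CPM from each gene's mean over the libraries, under bars of each library's length slope. Untreated replicate 4 and QHII replicate 3 carry the colours of the opposite treatment, for example in Atg9a at 9.11 and 31.7 CPM.

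The initiation complex joins the kinases ULK1 and ULK2 to the scaffold RB1CC1 (FIP200) and the adaptors ATG13 and ATG101. Of its 5 genes, 4 had fold changes below 0 and 1, Atg101, above 0. Rb1cc1 (mm10 chr1:6206197-6276648) had 23.5, 28.8, 31.8 and 21.9 CPM in Untreated replicates 1 to 4, and 29.2, 36.0, 25.4 and 27.1 CPM in the 5Gy replicates. With drug it had 21.6, 24.3, 25.7 and 22.3 CPM in QHII and 18.5, 22.5, 22.6 and 19.4 CPM in 5Gy_QHII. The 5Gy_QHII libraries all lay below the 5Gy ones, while QHII and Untreated overlapped. Its log2 fold change was -0.34 ± 0.10 (SE), with an edgeR adjusted p of 0.141.

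Atg101 (chr15:101284301-101290934) is the shortest gene of the complex, with 1230 exonic bases. Its levels were 37.1, 32.8, 31.8 and 58.0 CPM in Untreated and 27.2, 29.3, 41.4 and 30.5 CPM in 5Gy. QHII libraries had 64.8, 42.0, 31.0 and 48.4 CPM, and 5Gy_QHII libraries 67.0, 38.1, 42.0 and 75 CPM. Untreated replicate 4 was thus as high as most drug-treated libraries, and QHII replicate 3 as low as most drug-free ones. The log2 fold change was 0.50 ± 0.19, with an edgeR adjusted p of 0.144. Ulk1 ran from 12.9 to 21.4 CPM with drug (median 18.4) and from 16.1 to 27.1 CPM without (median 22.6), a log2 fold change of -0.32 ± 0.12. Ulk2 ran from 29.3 to 39.7 CPM with drug (median 36.4) and from 33.6 to 46 CPM without (median 41.1). For Atg13 the drug-treated range was 22.1 to 35.4 CPM (median 27.6) and the drug-free range 30.6 to 34.4 CPM (median 32.7).

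In the lipid kinase complex and its regulators, all 6 members had fold changes below 0, with a median log2 value of -0.25. PIK3C3 (VPS34) makes phosphatidylinositol 3-phosphate, PIK3R4 (VPS15) is its regulatory partner, Beclin 1 is their scaffold, and ATG14 and UVRAG direct the complex to different membranes. AMBRA1 regulates Beclin 1 and ULK1. Uvrag (chr7:98886743-99141144) had 72.2, 68.4, 91.3 and 52.5 CPM in Untreated and 75, 57.0, 58.2 and 75.5 CPM in 5Gy. Its values were 41.4, 53.3, 60.5 and 46.7 CPM in QHII and 35.5, 60.0, 58.6 and 25.8 CPM in 5Gy_QHII. The lowest value was that of the shallowest library, and the groups overlapped between 52.5 and 60.5 CPM. The log2 fold change of -0.53 ± 0.17 had an edgeR adjusted p of 0.141.

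Pik3r4 (chr9:105642978-105687657) had a drug-free range of 30.9 to 45.0 CPM (median 36.9) and a drug-treated range of 23.5 to 35.9 CPM (median 30.7), with a log2 fold change of -0.32 ± 0.11. Ambra1 ran from 34.2 to 55.0 CPM without drug (median 46.6) and from 30.3 to 45.0 CPM with it (median 38). Pik3c3 ran from 22.8 to 33.5 CPM without drug (median 31.3) and from 18.8 to 31.3 CPM with it (median 26.7). Atg14 had 6.33 CPM in Untreated replicate 4, below each of the drug-treated libraries, whose lowest value was 6.52 CPM, while its drug-free median was 10.3 CPM. Becn1 had 104 to 139 CPM without drug and 69.1 to 116 CPM with it. The 69.1 CPM was in 5Gy_QHII replicate 4, the shallowest library, and the next lowest drug-treated value was 96.3 CPM. That library also held the lowest drug-treated values of Pik3c3, Pik3r4, Ulk2 and Wipi1. Of Becn1's exonic bases, 43.9% also lie in exons of Cntd1 on the opposite strand. The counting used no strand option, so fragments of the pair cannot be told apart there.

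Among genes of membrane supply, 5 of 6 had fold changes below 0. ATG9A is a lipid scramblase carried by vesicles, ATG2A and ATG2B transfer lipids, WIPI1 and WIPI2 bind phosphatidylinositol 3-phosphate, and VMP1 is a scramblase of the endoplasmic reticulum. Atg9a (chr1:75180860-75192196) varied most of the 40 genes. It had 37.9, 36.0, 45.7 and 9.11 CPM in Untreated and 34.1, 26.3, 20.1 and 32.4 CPM in 5Gy. QHII libraries had 5.57, 14.8, 31.7 and 9.98 CPM, and 5Gy_QHII libraries 2.73, 25.9, 27.5 and 14.9 CPM. A single library in Untreated was far below its group and a single one in QHII far above, and the SDs within groups were 6.39 to 15.9 CPM. Its log2 fold change of -0.86 ± 0.44 was the largest of the members, with an edgeR adjusted p of 0.223. Exons of Gm29253, on the same strand, overlap part of the 32.6% of Atg9a's exonic bases that other genes share.

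Atg2b (chr12:105613539-105685241) had 72.0, 66.6, 93.8 and 53.1 CPM in Untreated and 79.7, 62.3, 58.9 and 60.9 CPM in 5Gy. With drug the values were 55.6, 53.7, 62.7 and 48.2 CPM in QHII and 44.5, 59.2, 52.6 and 57.3 CPM in 5Gy_QHII. Most drug-treated libraries were lower, with an overlap from 53.1 to 62.7 CPM, and the log2 fold change was -0.33 ± 0.11. Atg2a ran from 14.7 to 21.9 CPM with drug (median 18) and from 16.9 to 24.1 CPM without (median 22). Wipi1 ran from 17.3 to 28.5 CPM with drug (median 23.5) and from 23.7 to 32.3 CPM without (median 30.5). Each of these ranges overlapped. Wipi2, at medians of 79.2 and 76.4 CPM, and Vmp1, at 123 and 121 CPM, had log2 fold changes of 0.09 ± 0.07 and -0.01 ± 0.11.

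The conjugation genes leaned the other way, with 10 of 12 above 0 and a median log2 fold change of 0.14. ATG7 activates ATG12 and LC3, ATG10 and ATG3 pass them on, ATG5, ATG12 and ATG16L1 form the ligase, the ATG4 proteases trim LC3 and release it, and MAP1LC3A and MAP1LC3B are LC3 proteins. Map1lc3a (chr2:155276297-155278073) had 14, 12.9, 10.6 and 28.9 CPM in Untreated and 12.1, 26.4, 21.7 and 20.7 CPM in 5Gy. QHII libraries had 36.1, 21.5, 15.2 and 26 CPM, and 5Gy_QHII libraries 33.2, 18.8, 22.8 and 41.2 CPM. As for Atg101, Untreated replicate 4 was the highest of its group and QHII replicate 3 the lowest of its own. The log2 fold change was 0.54 ± 0.25, with an edgeR adjusted p of 0.180.

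Map1lc3b, the more widely used LC3 marker, ran from 106 to 211 CPM with drug (median 164) and from 118 to 170 CPM without (median 142), with a log2 fold change of 0.16 ± 0.11. Atg7 ran from 49.1 to 60.2 CPM with drug (median 55.5) and from 43.4 to 61.8 CPM without (median 46.6), where the highest drug-free value was that of Untreated replicate 4. Atg16l1 ran from 26.5 to 35.3 CPM with drug (median 32.7) and from 24.5 to 31.4 CPM without (median 28.7), with a log2 fold change of 0.17 ± 0.07, with an edgeR adjusted p of 0.160. Of the 4 proteases, Atg4c had the lowest fold change: it ran from 12.6 to 17.9 CPM with drug (median 14) and from 14.8 to 24.4 CPM without (median 16.8), a log2 fold change of -0.31 ± 0.12. Atg4d ran from 19.8 to 32.7 CPM with drug (median 27.4) and from 21.6 to 29.3 CPM without (median 22.6), and 31.2% of its exonic bases lie in exons of Kri1 on the opposite strand. Atg3, Atg4a, Atg4b, Atg5, Atg10 and Atg12 had log2 fold changes between -0.04 and 0.17 and unadjusted p-values of 0.185 or more.

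Of the 5 cargo receptors, 4 had fold changes below 0. Nbr1 (chr11:101552149-101581951), a receptor for ubiquitinated cargo, had 117, 119, 130 and 79.0 CPM in Untreated and 115, 113, 95.7 and 108 CPM in 5Gy. Its values were 74.6, 77.2, 107 and 74.3 CPM in QHII and 61.4, 96.1, 97.6 and 80.2 CPM in 5Gy_QHII. Again Untreated replicate 4 and QHII replicate 3 each lay among the values of the other treatment. The log2 fold change was -0.39 ± 0.12, with an edgeR adjusted p of 0.141. Sqstm1 had a median of 917 CPM with drug and 815 CPM without, with a log2 fold change of 0.05 ± 0.11. Tax1bp1 ran from 234 to 315 CPM with drug (median 272) and from 269 to 339 CPM without (median 306). Calcoco1 had medians of 32.1 CPM with drug and 34.4 CPM without, and Optn, which encodes optineurin, of 63.1 and 61.3 CPM.

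Tfeb and Tfe3 had values near 0, with log2 fold changes of 0.10 ± 0.16 and 0.05 ± 0.10. Tfeb had 35.3, 32.2, 29.8 and 54.9 CPM in Untreated, 32.7, 31.8, 33.5 and 36.5 CPM in 5Gy, 45.6, 35.2, 25.2 and 35.0 CPM in QHII, and 51.0, 27.6, 36.0 and 52.0 CPM in 5Gy_QHII. Its highest value was in Untreated replicate 4. Tfe3 ran from 42 to 56.8 CPM with drug (median 48.5) and from 38.1 to 58.2 CPM without (median 46.1). Lamp1 (chr8:13159135-13175338) had 821, 771, 776 and 905 CPM in Untreated and 711, 810, 881 and 711 CPM in 5Gy, beside 1060, 939, 757 and 934 CPM in QHII and 1030, 854, 905 and 834 CPM in 5Gy_QHII. Its log2 fold change was 0.19 ± 0.09, with an edgeR adjusted p of 0.177. Lamp2, its close relative, had medians of 339 CPM with drug and 350 CPM without. Epg5, a tether for fusion with lysosomes, ran from 11.9 to 20.1 CPM with drug (median 15.4) and from 13.5 to 24.1 CPM without (median 18.7). Tecpr1, which takes part in fusion with lysosomes, had medians of 535 and 511 CPM.

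**Figure D2:**
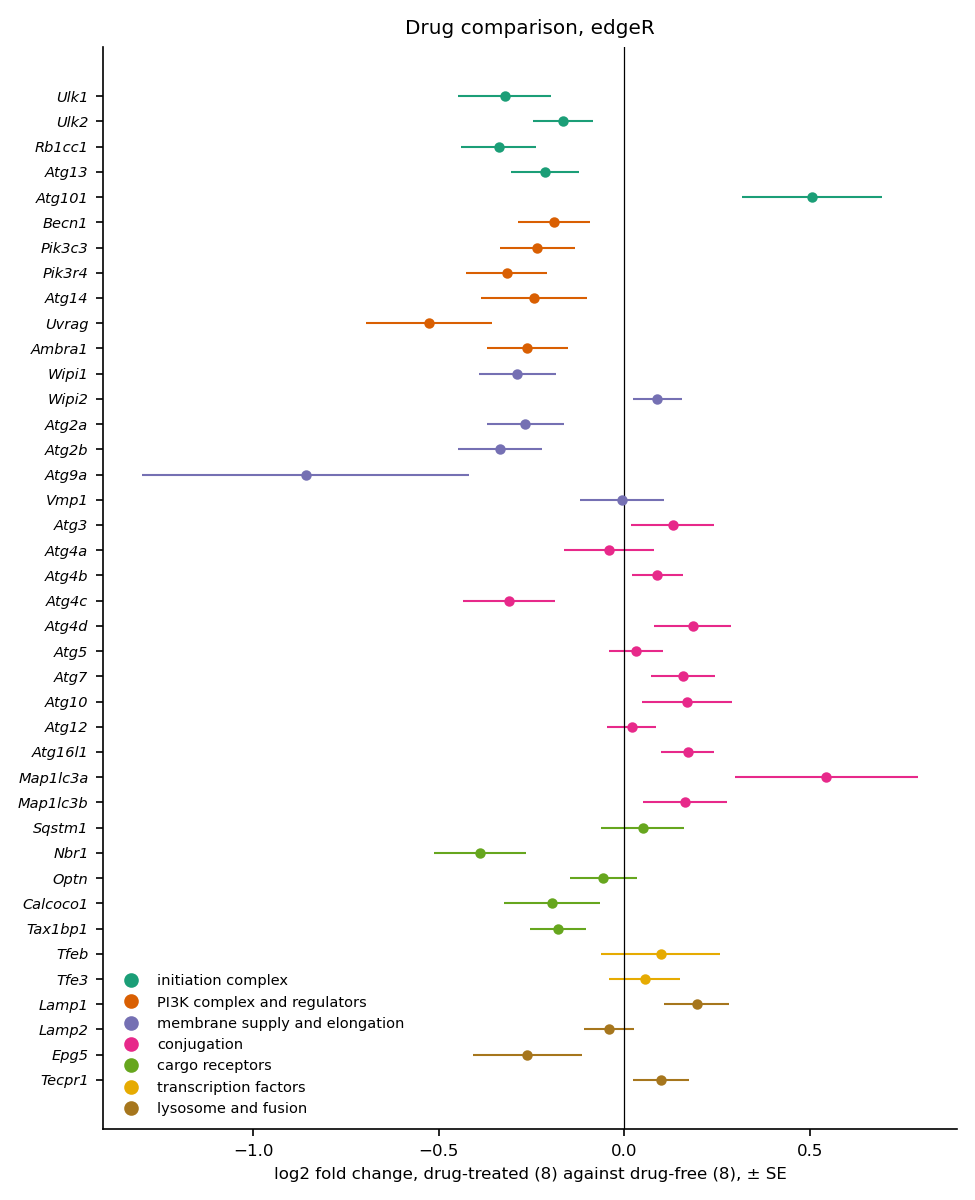
Log2 fold change of each of the 40 genes in the drug comparison, with its standard error, coloured by role. The 6 lipid kinase genes all lie left of 0 and 10 of 12 conjugation genes right of it, while no gene passed the adjusted threshold.

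TFEB and TFE3 bind the E-box CACGTG, which reads the same on both strands. RefSeq promoter windows of the GRCm38.p6 build were matched for 33 of the 40 members, leaving out Rb1cc1, Becn1, Pik3c3, Atg12, Atg16l1, Map1lc3a and Epg5. Within the 250 bases before a RefSeq start, 4 members held CACGTG, or 12.1%, beside 6.86% of 27025 genes with a window. The longer form TCACGTGA, which contains the first motif, was found in Atg3, or 3.03% of members, beside 0.907% of genes. These 4 are shown because they are the members with the motif. In capitals is CACGTG, on the plus strand, at chr16:45158715-45158783 for Atg3, chr10:44268305-44268338 for Atg5, chr6:114670944-114670989 for Atg7 and chr8:13159080-13159134 for Lamp1.
Atg3: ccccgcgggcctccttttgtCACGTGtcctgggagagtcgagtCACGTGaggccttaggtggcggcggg
Atg5: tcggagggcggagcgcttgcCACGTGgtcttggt
Atg7: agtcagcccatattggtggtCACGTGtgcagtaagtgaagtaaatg
Lamp1: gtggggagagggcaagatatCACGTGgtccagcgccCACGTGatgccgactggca
The Lamp1 window held 4 such boxes, of which 2 are printed because the rest reach into the gene's annotated exons. The Atg7 stretch lies inside the annotated gene, which spans chr6:114643097-114860614 on the plus strand. It precedes a start within the gene, not the gene's first annotated base. The log2 fold changes of these 4 genes in the drug comparison were 0.13 ± 0.11 for Atg3, 0.03 ± 0.07 for Atg5, 0.16 ± 0.09 for Atg7 and 0.19 ± 0.09 for Lamp1. A match describes letters in the window, and binding was not measured.

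In 3 neighbouring gene lists of the pathway edgeR called 0 genes in the drug comparison. Of all genes tested there, 26.1% had an unadjusted p under 0.05, or 32% with the stricter count filter. Of 42 lysosome genes, 18 (42.9%) had such a p, and the median log2 fold change was 0.11. The vacuolar ATPase subunit gene Atp6v0b had 392 ± 120 CPM with drug and 242 ± 57.8 CPM without (SD, n = 8 each), and Cd63, a tetraspanin of late endosomes, had 1220 ± 291 and 820 ± 204 CPM. Of 31 mTORC1 and AMPK genes, 13 (41.9%) did, with a median of -0.06. The 4 with the smallest p encode Ragulator subunits, which anchor mTORC1 to the lysosome, and all were above 0, with Lamtor4 at 0.94 ± 0.27, Lamtor2 at 0.65 ± 0.21, Lamtor5 at 0.40 ± 0.14 and Lamtor3 at 0.31 ± 0.11 on the log2 scale. Of 30 other autophagy genes, 29 were tested and 12 (41.4%) did. Vamp8, a SNARE of vesicle fusion, had the largest of the 4 named by the rule, at 0.82 ± 0.26. Lamtor4, Lamtor2, Lamtor5 and Lamtor3 have 1302, 1218, 884 and 4151 exonic bases. Cd63, Atp6v0b and Vamp8 have 1031, 2051 and 2311. Over all genes tested, the median log2 fold change was 0.34 at 721 to 1119 bases and 0.29 at 1120 to 1467. It was 0.15 at 1775 to 2066 bases, 0.11 at 2066 to 2353 and -0.06 at 3873 to 4249.

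Fold changes were then set against gene length, the number of exonic bases in the deposited table. Member lengths ran from 1181 bases, for Map1lc3a, to 14690 bases, for Rb1cc1, with a median of 5471 beside 3527 over all genes tested. Across the 40 members, the drug log2 fold change was related to log2 length with a Pearson r of -0.424 (Spearman rho -0.349). Across all 16101 genes r was -0.420 (rho -0.468). Genes are not independent replicates, and these values describe 1 set of libraries. Of the 20 longer members 13 were below 0, with a median of -0.18, and of the other tested genes of such length 77.1% were below 0, with a median of -0.20. Of the 20 shorter members 10 were below 0, with a median of 0.01, beside 42.4% and a median of 0.07 for other genes of such length. With all tested genes divided into 20 bins of length, 22 of the 40 members lay within the quartiles of their bin, among them Rb1cc1, Pik3r4, Atg2b, Epg5 and Lamp1. Below the lower quartile were 7, namely Atg9a, Uvrag, Nbr1, Atg4c, Wipi1, Atg14 and Pik3c3. Above the upper quartile were 11, among them Atg101 and Map1lc3a at the short end and Atg16l1, Wipi2 and Tecpr1, with 9628, 10543 and 12772 bases, at the long end.

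**Figure D3:**
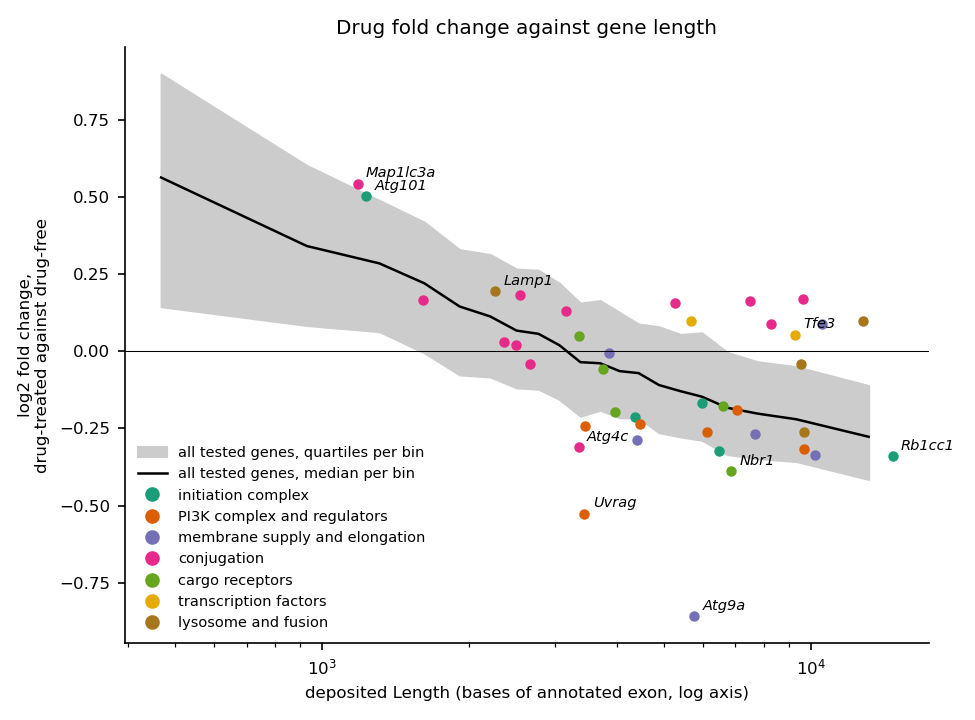
Drug log2 fold change of the 40 genes (points, coloured by role) against exonic length on a log axis, over the median (line) and quartiles (grey) of all tested genes in 20 bins of length. Atg9a and Uvrag, at -0.86 and -0.53, lie below the band, and Map1lc3a and Atg101, at 0.54 and 0.50, at its upper edge.

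The dependence on length could be measured in each library. The slope of a library's log2 CPM deviation on log2 length, over the 9770 genes whose mean log2 CPM exceeded 3, was highest in Untreated replicate 3, at 0.228 log2 CPM per doubling of length, and lowest in 5Gy_QHII replicate 1, at -0.248, with QHII replicate 1 at -0.247. Untreated replicate 4, at -0.178, and QHII replicate 3, at 0.131, lay on the other side of 0 from the rest of their groups. So did 5Gy replicate 3, at -0.0511, and 5Gy_QHII replicate 2, at 0.0214, both nearer to 0. The mean slope was -0.0882 ± 0.130 with drug and 0.0882 ± 0.138 without (SD, n = 8 each). An exact two-sided permutation test of that difference of -0.176 gave p = 0.0224, or 0.157 adjusted over 7 comparisons of groups. Within the unirradiated groups the difference was -0.156 (exact permutation p = 0.257), and within the irradiated groups -0.197 (exact permutation p = 0.0857), where 0.0286 is the smallest p that 4 against 4 can give.

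Most of the 40 genes moved with this slope from library to library. Pearson's r over the 16 libraries, with the slope computed without the members, was above 0 for 20 genes and below 0 for 13 at an adjusted permutation p under 0.05 (40 relations, 100000 permutations). The permutation test was not run for other genes, so these counts have no background share. An r beyond 0.7 in either direction was found in 70.0% of members, beside 48.8% of 9730 other genes with a mean log2 CPM above 3. The median absolute r was 0.777 in members and 0.69 in those other genes. Atg9a had an r of 0.912 (rho 0.909), Nbr1 of 0.953 (rho 0.935), Ambra1 of 0.955 (rho 0.950), and Atg101 of -0.915 (rho -0.906), each with a permutation p of 1e-05 for r and for rho, the smallest these permutations can give. Adjusted over the 40 genes these p-values were 5e-05 for r and 6.67e-05 for rho. Leaving out the 2 libraries farthest from the median slope, r was 0.911 for Atg9a, 0.946 for Nbr1, 0.930 for Ambra1 and -0.872 for Atg101.

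The relation was seen within treatments too. For Atg9a r was 0.911 in the 8 drug-free and 0.917 in the 8 drug-treated libraries, and for Nbr1 0.945 and 0.932. Over all members, 38 of 40 had the same sign of r in both sets. The share of other genes with the same sign was not computed, so this count is not particular to the members. The sign was not set by the member's own length alone, since Tfe3, Tfeb, Atg4b and Atg16l1 are longer than the median gene and had r of -0.722, -0.748, -0.799 and -0.640. Vmp1 and Atg12 varied little with the slope, with r of 0.109 and -0.0993. Lamp2 had an r of 0.202 over the 16 libraries, but its sign differed between the sets. Its r was 0.674 in the drug-free and -0.695 in the drug-treated libraries.

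**Figure D4:**
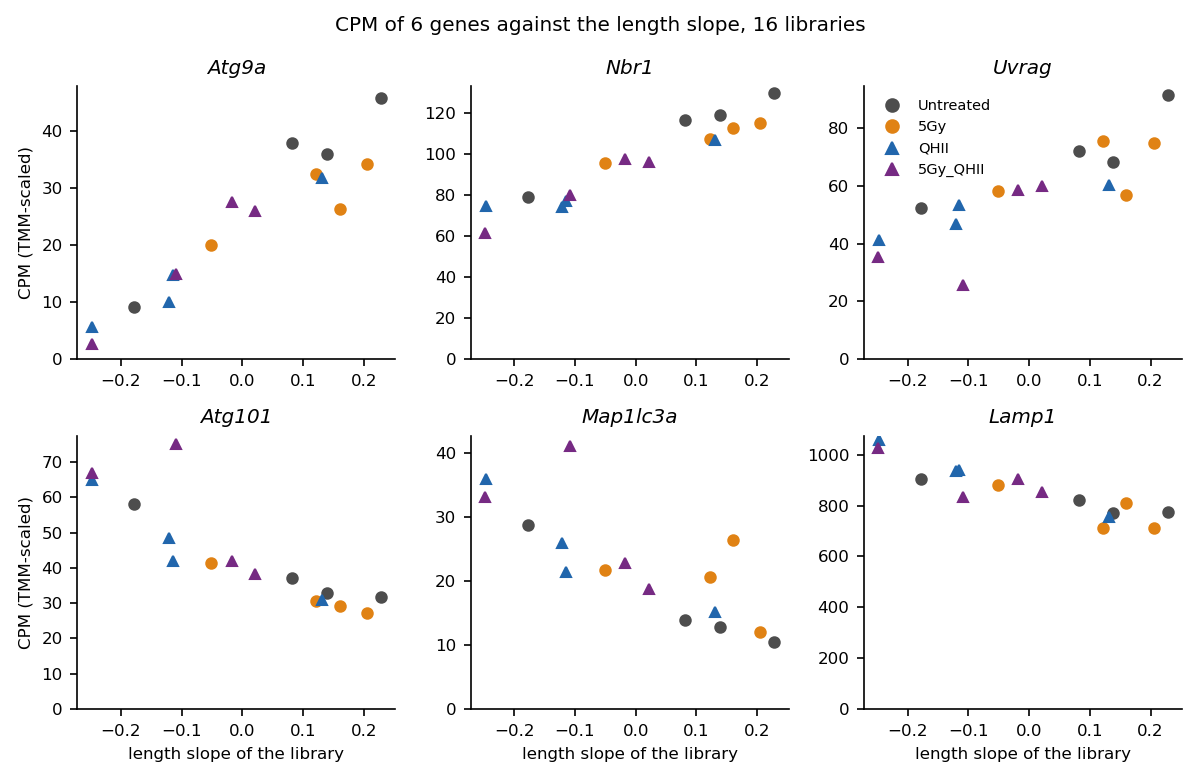
CPM of Atg9a, Nbr1, Uvrag, Atg101, Map1lc3a and Lamp1 in the 16 libraries against the length slope of the library, with colours and shapes for the groups. The drug-treated and drug-free libraries lie along common trends, rising for the upper 3 genes and falling for the lower 3.

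With the slope as a covariate in the edgeR fit, 2 members had an unadjusted p under 0.05, beside 3.17% of all genes, and 0 members and 0% of genes were called. Of the 40 members, 16 changed sign. The 2 with the smallest p were Tfeb, at a log2 fold change of -0.28 ± 0.11, and Sqstm1, at -0.17 ± 0.08, both above 0 without the covariate. Atg9a moved from -0.86 to 0.09 ± 0.27, Map1lc3a from 0.54 to -0.0015 ± 0.18, Atg101 from 0.50 to 0.04 ± 0.11 and Nbr1 from -0.39 to -0.09 ± 0.06. Uvrag, at -0.21 ± 0.15, and Rb1cc1, at -0.15 ± 0.08, kept their sign with smaller values. DESeq2, voom and edgeR without Untreated replicate 4 each called 0 members with the covariate, where without it they had called 6, 24 and 12. The share of all genes called with the covariate was 0.0124% in DESeq2 and 0% in the other fits. The mean slope was -0.0882 with drug and 0.0882 without (exact permutation p = 0.0224, or 0.157 adjusted over 7 comparisons). With the slope unevenly spread over the treatments, a drug effect and the slope cannot be told apart fully by this fit.

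A second correction took out only the trend with each gene's length, as offsets per library. The r of fold change with log2 length went from -0.424 to 0.181 over the members. Over all genes it went from -0.42 to 0.0782, so a weak opposite trend remained. There, 11 members had an unadjusted p under 0.05, beside 20.2% of all genes, and 0 members and 0% of genes were called, with a smallest adjusted p of 0.185. Uvrag stayed at -0.53 ± 0.17 and Atg9a at -0.75 ± 0.41, while Rb1cc1 came to -0.04 ± 0.08 and Atg2b to -0.09 ± 0.07. Atg16l1 came to 0.40 ± 0.11 and Tecpr1 to 0.36 ± 0.11. The fold changes of members thus depended on whether the length of the gene or the slope of the library was taken out.

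**Figure D5:**
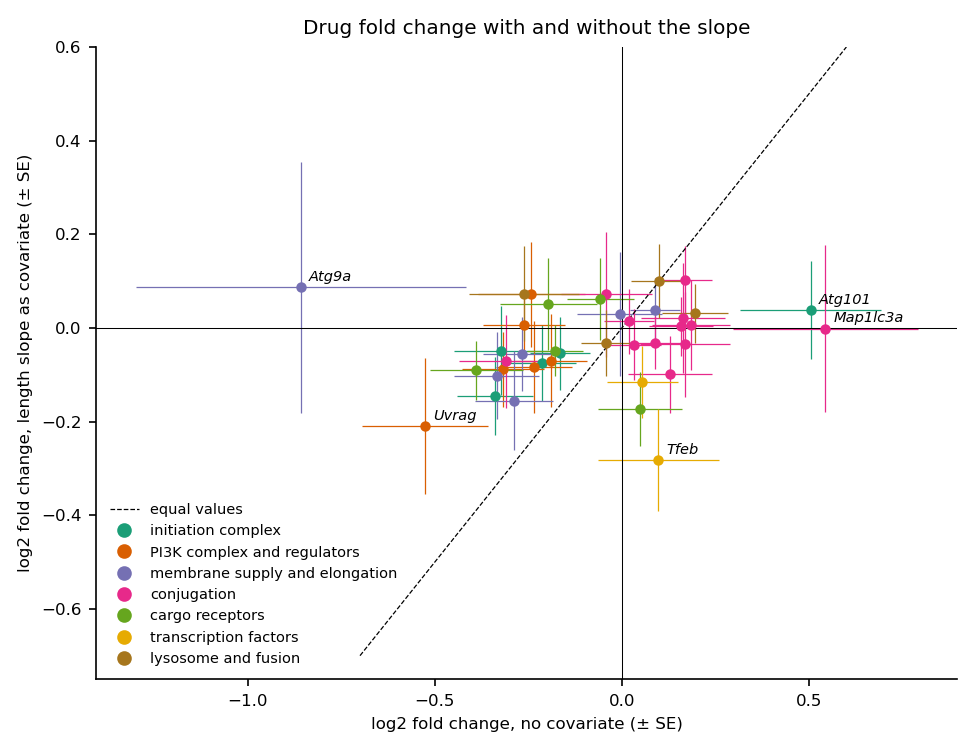
Drug log2 fold change of the 40 genes with the length slope as a covariate (vertical) against the value with no covariate (horizontal), with standard errors and a dashed line of equal values. Atg9a, Atg101 and Map1lc3a move to within 0.1 of 0.

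The drug was also compared within each radiation level. In QHII against Untreated, edgeR called 0 members and 0% of genes, with 3 members at an unadjusted p under 0.05 beside 8.17% of genes. The smallest p was that of Nbr1, at a log2 fold change of -0.42 ± 0.18 and an edgeR adjusted p of 0.546. DESeq2 called 0 members there, at a background of 0.0994%, and voom called 14, 12 of them lower, at a background of 28.9%. In 5Gy_QHII against 5Gy, edgeR called 0 members and 0% of genes, with 11 members at an unadjusted p under 0.05 beside 19.5% of genes, and DESeq2 and voom also called 0, at backgrounds of 0.764% and 0.429%. Rb1cc1 had the smallest p, at -0.50 ± 0.14, followed by Atg101, at 0.79 ± 0.27, each with an edgeR adjusted p of 0.209. Markers of other cell types differed between the same groups without passing the threshold. All 10 fibroblast markers were below 0 (median log2 fold change -1.02), as were all 8 adipocyte markers (median -2.11) and the 15 skin epithelium markers tested (median -1.17). The mean log2 CPM of the fibroblast markers was 5.06 to 6.48 in 5Gy_QHII and 6.498 to 7.36 in 5Gy. For the skin markers this mean went the other way from the fold changes. It was 3.37 ± 3.01 in 5Gy_QHII and 2.16 ± 5.23 in 5Gy (SD, n = 4 each), so the direction for skin depended on the measure. In QHII against Untreated the same fibroblast and adipocyte markers were all above 0, with medians of 0.73 and 3.62. The part of these cells in the members' values was not tested beyond the fits with skin or muscle scores, in which edgeR also called 0 members.

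The difference between those drug effects, tested as an interaction, was called for 0 members and 0% of genes by edgeR, with 2 members (5%) at an unadjusted p under 0.05 beside 6.96% of genes. DESeq2 called 0, at a background of 0.366%, and voom called 1, Wipi2, at 0.39 ± 0.10 on the log2 scale, where its background was 3.09%. For radiation alone, 5Gy against Untreated, edgeR called 0 members while its background was 1.26% of genes, with 2 members (5%) at an unadjusted p under 0.05 beside 15.1% of genes. Tecpr1 had the smallest p, at a log2 fold change of -0.31 ± 0.11, and was the 1 member that DESeq2 called, at a background of 7.60%. Voom called 0, at a background of 4.98%. In this comparison all 12 melanocyte markers were below 0 (median -0.32), with a mean log2 CPM of 9.52 to 9.79 in 5Gy and 9.92 to 10.18 in Untreated. EdgeR called 9 of 10 fibroblast and 3 of 13 macrophage markers higher, and the 15 skin markers tested were all above 0. With the skin score as a covariate 1 member had an unadjusted p under 0.05, beside 6.69% of genes. Without the libraries with skin transcripts, only replicates 1 and 3 of 5Gy and replicate 1 of 5Gy_QHII remained. The median log2 fold change was then -0.05 over the members and -0.06 over all genes. The part of fibroblasts and macrophages in these values was not tested. Wipi2 and Tecpr1 are singled out here after their values were seen. In 5Gy_QHII against Untreated, edgeR, DESeq2 and voom called 0 members, at backgrounds of 0%, 1.28% and 0%, with 9 members (22.5%) at an unadjusted p under 0.05 in edgeR beside 16.2% of genes. Uvrag led these at -0.66 ± 0.24. These comparisons share their control libraries, so their values are not independent.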

How the data were processed

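Transcriptome-capture RNA libraries of 16 tumour RNA samples were read from 1 deposited table of raw counts per gene. Per the submitters' processing notes, STAR 2.4.1a, featureCounts, edgeR and mm10 were named. Per the file headers, the counting by featureCounts 1.6.0 was of fragments, over exons and without a strand option, and the deposited Length column gives exonic bases. Groups came from sample titles. The members and gene lists were chosen with earlier results of these data known.

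Counts were filtered by filterByExpr, scaled by TMM and tested in R 4.3.3 and edgeR 4.0.16, with 1 mean per group over all 16 libraries, a robust two-sided quasi-likelihood test and Benjamini-Hochberg adjustment over all 16101 genes (threshold 0.05). The scripts were tested on simulated data. DESeq2 1.42.0, limma 3.58.1 (voom with sample weights), other scalings, filters, covariates and each library left out were alternatives, and 3 that join the slope covariate to another choice were added after seeing the data. CPM and FPKM used TMM-scaled totals, and log2 CPM a prior count of 2. The length slope was a least-squares fit over genes whose mean log2 CPM exceeded 3, and for relations with members it was computed without them. Full values are given for members past the threshold in any comparison, or in the drug comparison under any alternative with all libraries, or otherwise the 2 of each role with the smallest p. Values by library are printed for those of them the results turn on, the rest by range or median. Because reads carry no molecular identifiers, depth limits cover counting error only.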

Additional observations from a re-analysis of the deposited data

Results flagged for a closer look

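Sets of 4 libraries were tested over the members with full values and the length slope. In 5 of 108 sets 1 library stood apart from the other 3 by Dixon's criterion, and chance flags about 1 in 20 such sets. Atg14 had 6.33 CPM in Untreated replicate 4 where the others had 10.4 to 11.2 CPM. Nbr1 had 107 CPM in QHII replicate 3 where the others had 74.3 to 77.2 CPM. Atg2b had 79.7 CPM in 5Gy replicate 1 where the others had 58.9 to 62.3 CPM. Atg2a had 14.7 CPM in 5Gy_QHII replicate 1 where the others had 18 to 18.3 CPM. Map1lc3b had 106 CPM in 5Gy_QHII replicate 4, the shallowest library, where the others had 163 to 167 CPM.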

How the results depend on the processing

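The count of 0 members called in the drug comparison became 6 with DESeq2, 24 with voom and 0 to 12 with each library left out. The 12 came from leaving out Untreated replicate 4, where edgeR called 2880 of 16495 genes. The other left-out libraries gave 0. In QHII against Untreated voom called 14, in the interaction voom called 1, and in 5Gy against Untreated DESeq2 called 1. The cause of these differences was not tested. Fold changes of 16 members changed sign with the slope covariate, and of 5 with length offsets. Among the members with full values the covariate moved 7 across 0, to 0.0719 for Atg14, 0.0059 for Ambra1, 0.0870 for Atg9a, -0.0015 for Map1lc3a, -0.28 for Tfeb, -0.12 for Tfe3 and 0.0735 for Epg5, none past the threshold before or after. The slope difference of -0.176 lay between -0.154 and -0.215 with each library left out. With a replicate block 0 members and 0% of genes were called, and 18 members had an unadjusted p under 0.05 beside 25.8% of genes. Replicate numbers gave no sign of pairing, since deviations of same-numbered libraries correlated at -0.426 to 0.484, and 4 of 16 libraries were closest to their own number. The 4 libraries of a group and depths down to 6994198 counts limit what could be detected, and a missed threshold does not show that levels were equal.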
